A study of Mus musculus with 4 samples.

Results

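The colony-stimulating factors and their receptors were followed through the immune cells of EO771 mouse mammary tumors. The family was taken as a fixed set of 8 genes of the 32285 in the deposited count table: the ligand genes Csf1, Csf2 and Csf3 and the receptor genes Csf1r, Csf2ra, Csf2rb, Csf2rb2 and Csf3r. All 8 had UMIs, the counts of single mRNA molecules, in the cells that the authors kept, where 22232 genes had any. EO771 cells, a C57BL/6-derived mammary carcinoma line, were implanted into the mammary fat pads of female Csf1rfl/fl and Lyve1CreCsf1rfl/fl mice on the C57BL/6 background. Viable CD45+ cells of the tumors were sorted for single-cell RNA sequencing. Both genotypes carried the floxed Csf1r allele, and only Lyve1CreCsf1rfl/fl mice carried the Cre that the Lyve1 promoter drives. That promoter is active in LYVE-1+ macrophages, the cells the cross was made to deplete, and also in lymphatic endothelium. The age of the mice was not given in the sources used here. Each genotype had 2 tumors, and each of 2 Chromium runs pooled 1 tumor of each genotype.

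CSF1, also called M-CSF, binds CSF1R, a receptor tyrosine kinase that monocytes and macrophages need for survival and differentiation. CSF2, or GM-CSF, binds a receptor of a specific alpha chain (Csf2ra) and the beta common chain (Csf2rb), which also serves IL3 and IL5 and signals through JAK2 and STAT5. Mice have a further beta chain, encoded by Csf2rb2, that pairs with the IL3 receptor alpha chain. CSF3, or G-CSF, binds CSF3R, which drives the production and maturation of neutrophils and signals largely through STAT3.

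On the mouse build GRCm38 the annotation places all 8 as protein-coding genes. Csf1 lies at chr3:107741048-107760469 on the minus strand, and Csf2 at chr11:54247271-54249667 on the minus strand. Csf3 lies on the same chromosome at chr11:98701263-98703629 on the plus strand. Csf2ra lies at chr19:61223957-61228429 on the minus strand and Csf3r at chr4:126024550-126044440 on the plus strand. The beta chain genes are neighbors on opposite strands, with Csf2rb2 at chr15:78282507-78305721 (minus) and Csf2rb at chr15:78325752-78353847 (plus). Their longest transcripts were 91.5% identical where aligned, and the last 500 bases, where 3′ reads fall, were 85.4% identical. None of the 411 windows of 90 bases in the last 500 bases of Csf2rb was found in Csf2rb2, although 394 of 4811 windows (8.19%) of the whole transcript were. Counts of the beta chains remain uncertain where reads fell in those shared windows.

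Promoters are shown for Csf2rb2, Csf3r and Csf1, whose highest cell type did not overlap with any other of the 16 gated types that had cells in all 4 tumors. They come from RefSeq (GRCm38.p6), which gave an entry used here for 5 of the 8 genes, and are the bases just upstream of the annotated gene start, read 5′ to 3′ on the strand of the gene. Capitals mark matches to GAGGAA, a core letter string of PU.1 sites, to TTNNGNAA, found in C/EBP sites, or to TTCNNNGAA, the core of STAT sites, on either strand. Over 32817 promoters of up to 250 bases, GAGGAA was found in 23.3%, TTNNGNAA in 36.8% and TTCNNNGAA in 7.01%. The Csf2rb2 promoter (chr15:78305722-78305971, minus strand) held GAGGAA on the opposite strand, as TTCCTC, and 1 match to TTCNNNGAA, which did not overlap. The Csf3r window (chr4:126024409-126024549, plus strand) and the Csf1 promoter (chr3:107760470-107760719, minus strand) held none of the 3 strings.
Csf2rb2: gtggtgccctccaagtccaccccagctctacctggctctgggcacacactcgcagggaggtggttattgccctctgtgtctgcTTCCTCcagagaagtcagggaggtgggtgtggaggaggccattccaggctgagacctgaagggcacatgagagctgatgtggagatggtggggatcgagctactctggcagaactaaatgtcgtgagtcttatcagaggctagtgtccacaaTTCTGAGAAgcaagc
Csf3r: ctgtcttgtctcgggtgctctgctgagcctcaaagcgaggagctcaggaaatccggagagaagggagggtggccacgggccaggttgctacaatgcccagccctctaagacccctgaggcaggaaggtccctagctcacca
Csf1: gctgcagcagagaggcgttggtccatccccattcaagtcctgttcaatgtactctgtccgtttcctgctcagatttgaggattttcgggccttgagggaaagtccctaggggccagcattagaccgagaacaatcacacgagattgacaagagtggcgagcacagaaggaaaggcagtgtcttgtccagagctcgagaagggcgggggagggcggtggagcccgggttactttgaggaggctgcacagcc

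The authors kept 28429 of 53361 barcodes. In Csf1rfl/fl tumors 8699 and 7786 cells were kept from runs 1 and 2, and in Lyve1CreCsf1rfl/fl tumors 7173 and 4771. The tumors held 27686362 to 56715743 UMIs, with medians of 3721 to 4657 UMIs per cell. The kept cells of the runs shared 60 barcode sequences. Scrublet scores cells by their likeness to simulated doublets. It called 25.5% of the kept cells of the Csf1rfl/fl tumor of run 1 doublets, and 12.5 to 16.2% of the other tumors. In that tumor 6.82% of cells had a hashtag count under 3 times the other hashtag, against 0.218 to 1.41% elsewhere, so it stood apart in both measures. Cells were gated into types by lists of lineage markers that held no gene of the family, and 4391 cells (15.4%) that no list or more than 1 list claimed were left without a type. The largest gates were neutrophils (5084 cells), Ly6c2 monocytes (3569), CD8 T cells (2799), NK cells (2062), C1q macrophages (1925) and mature dendritic cells (1852). C1qa, C1qc and C1qb were among the first 4 leading genes of the C1q gate and Retnlg among the first 3 of the neutrophil gate. Foxp3 was first in regulatory T cells. These genes are among the markers that set the gates, so their rank does not test the gates. No gate had more markers of another list than of its own among its 10 leading genes. CD8 T cells had 1 from their own lists and 1 from the gamma delta list among theirs. The stromal or tumor gate and the T cells of no subset had 0 of their markers there and were led by Mgp and Idi2. Scrublet called 34.2% of C1q macrophages, 26.9% of plasmacytoid dendritic cells and 40.7% of the 334 gated B cells doublets. B cells were not tested, since the Csf1rfl/fl tumor of run 2 had 8 of them and the Lyve1CreCsf1rfl/fl tumor of run 2 had 262.

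Levels below are UMIs of a gene per 10000 UMIs of all genes, over the cells of a type in a tumor. They are always given in the order Csf1rfl/fl run 1, Csf1rfl/fl run 2, Lyve1CreCsf1rfl/fl run 1 and Lyve1CreCsf1rfl/fl run 2, and means are ± SD over n = 4 tumors. Because a level over mixed cells is a sum, fewer cells of a type and less RNA per cell cannot be told apart in the values over all kept cells. Csf1r over all kept cells was 0.898, 0.964, 0.427 and 0.454, so both Lyve1CreCsf1rfl/fl tumors lay under both Csf1rfl/fl tumors. The share of all genes that separated the genotypes in this way was not computed. The levels are counts of 3′ ends, which are read outside the deleted part of a floxed gene as well. They thus do not check whether the allele was recombined in a given cell. The mast cell or basophil gate had 8 cells, 4 in each tumor of run 2 and none in run 1, and Scrublet called 75% of them doublets. It was left out of the orders of types given below, although it had 31.1 and 5.58 of Csf1, 11.2 and 15.8 of Csf2rb and 3.99 and 2.79 of Csf2rb2 in those tumors (Csf1rfl/fl, then Lyve1CreCsf1rfl/fl).

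Csf1r was highest in the 3 gates of monocytes and macrophages. Ly6c2 monocytes had 2.08, 2.26, 1.43 and 1.34 (1.78 ± 0.46), and C1q macrophages 1.53, 2.16, 1.30 and 1.19 (1.55 ± 0.43). Arg1 macrophages had 1.37, 1.75, 1.26 and 1.33 (1.43 ± 0.22). These ranges overlapped, so the order among the 3 gates was within the spread between tumors. Cd209a dendritic cells followed at 0.682, 0.934, 0.490 and 0.563, with no overlap with Arg1 macrophages. Neutrophils had 0.735, 0.576, 0.371 and 0.519, which overlapped with Cd209a dendritic cells and lay above every tumor of the cDC1 gate (0.0898 to 0.273). B cells had a mean of 0.628 with a range of 0.154 to 0.931, and this gate had 40.7% of cells called doublets.

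A Csf1r UMI was found in 57.9% of Ly6c2 monocytes and 58.6% of C1q macrophages. In CD8 T cells, which should lack the receptor, it was found in 6.5% of cells. After each cell was thinned to 1500 UMIs, and shallower cells were left out, the shares were 24.3%, 21.3% and 1.76%. The level in CD8 T cells was 0.310, 0.148, 0.0959 and 0.0845, and without cells called doublets it was 0.0567, 0.0351, 0.0315 and 0.0286. In NK cells it went from 0.2, 0.171, 0.0742 and 0.0848 to 0.0870, 0.0484, 0.0147 and 0.0280. The neutrophil gene S100a8 was found in CD8 T cells at 1.45 to 11.2, beside 494.2 to 759.3 in neutrophils, and the part of such free RNA in the Csf1r of lymphocytes was not tested. In neutrophils 11% of cells had a Csf1r UMI (6.16% after thinning), above the share in CD8 T cells at both depths. Of all Csf1r UMIs, monocytes held 31.8%, C1q macrophages 20.7%, neutrophils 6.68%, Arg1 macrophages 4.75% and cells of no gate 21.0%.

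**Figure D1:**
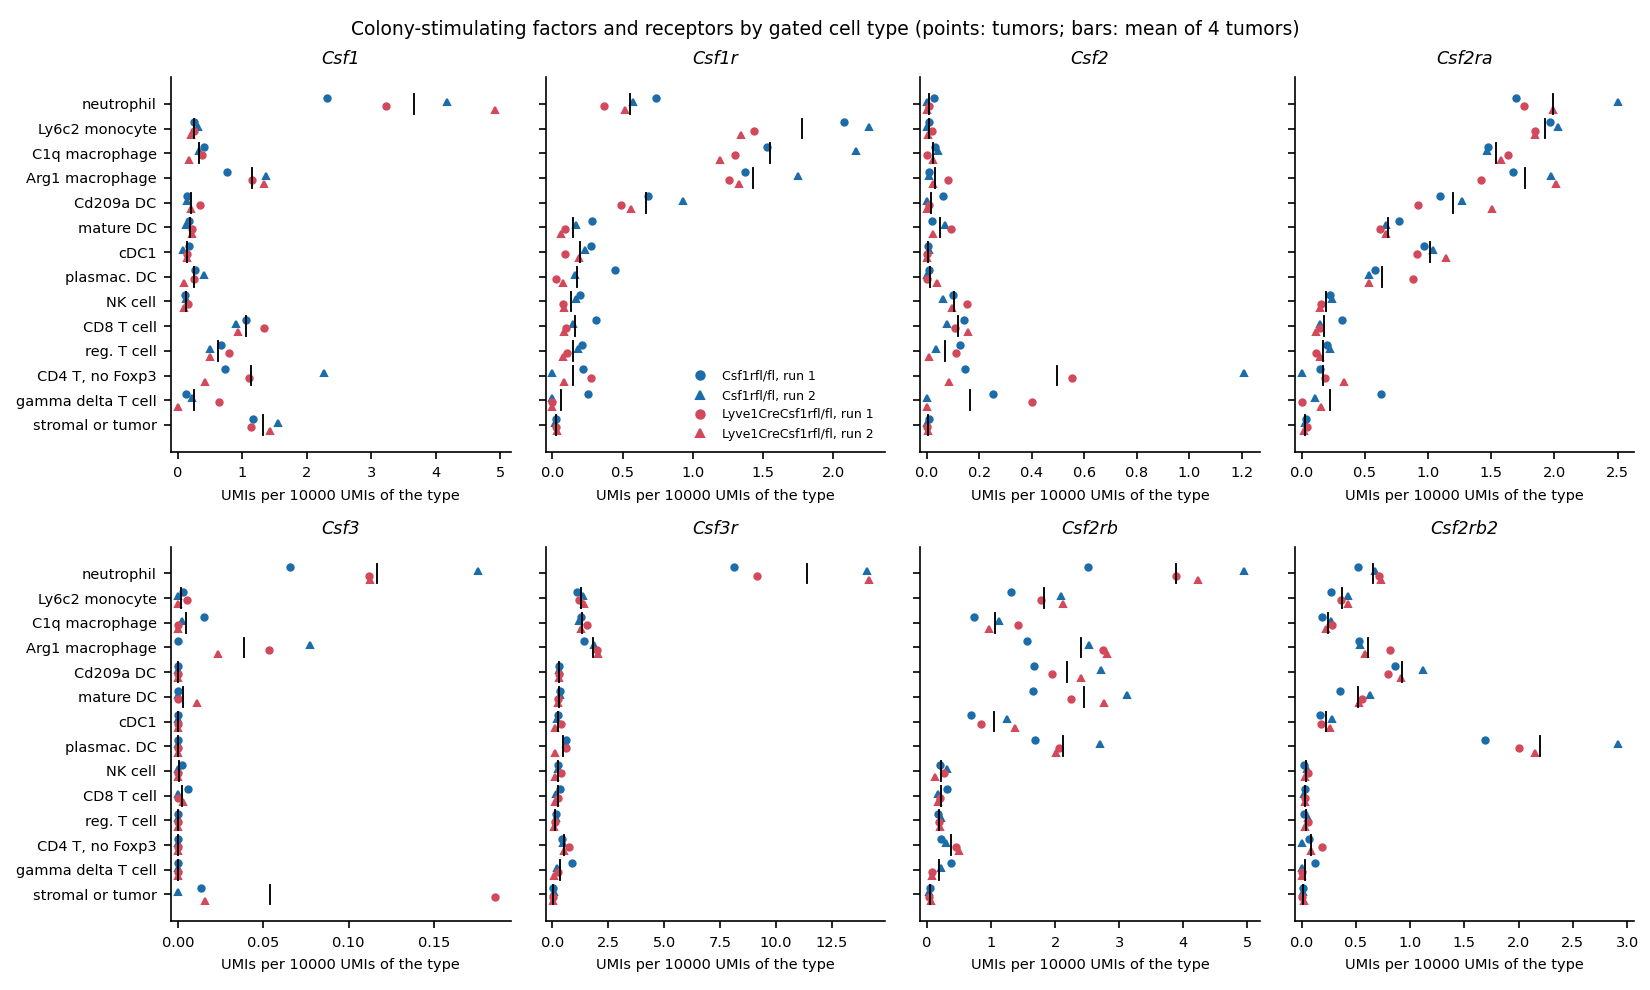
Level of each gene of the family (UMIs per 10000 UMIs, x axis, 1 panel per gene) in 14 gated cell types (y axis), with points for the 4 tumors (blue for Csf1rfl/fl, red for Lyve1CreCsf1rfl/fl) and a vertical mark for their mean. Among these types, Csf3r and Csf1 stand out in neutrophils (means 11.4 and 3.66), Csf2rb2 in plasmacytoid dendritic cells (2.19), and Csf1r in monocytes and macrophages (1.43 to 1.78).

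Among the ligands, Csf1 was highest in neutrophils of the types with cells in all 4 tumors. They had 2.31, 4.18, 3.22 and 4.91 (3.66 ± 1.13), and every tumor lay above every tumor of the other 15 gated types with a level in all 4 tumors. CD4 T cells without Foxp3 came nearest, with 0.726, 2.26, 1.11 and 0.421 on 42 UMIs in all, so that 1 tumor set their upper end. Stromal or tumor cells, which the CD45 sort did not remove entirely, had 1.17, 1.56, 1.13 and 1.43 (1.32 ± 0.21). Their median of 46323.5 UMIs per cell was the deepest of the gates, and Scrublet called 43.9% of these 244 cells doublets. Arg1 macrophages had 0.755, 1.36, 1.15 and 1.33 and CD8 T cells 1.06, 0.899, 1.34 and 0.929, which overlapped. C1q macrophages (0.324 ± 0.11) and Ly6c2 monocytes (0.255 ± 0.041) had less, and NK cells had the lowest mean at 0.122 ± 0.028, within the spread of cDC1 (0.0805 to 0.179). Csf1 thus separated CD8 T cells, at 0.899 to 1.34, from NK cells, at 0.0929 to 0.160, without overlap. A Csf1 UMI was found in 34.3% of neutrophils and 36.8% of CD8 T cells against 4.03% of NK cells, and after thinning in 27.1%, 16.1% and 1.05%. Neutrophils held 35.2% of all Csf1 UMIs and CD8 T cells 13.5%.

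Csf2 was sparse, with 946 UMIs in 415 cells (1.46% of kept cells). The 10 cells with the most held 21.8% of them, and the highest, a T cell of no subset from the Lyve1CreCsf1rfl/fl tumor of run 2, held 57. CD8 T cells had the largest number of any gate, 213 UMIs (22.5%), at levels of 0.141, 0.0765, 0.108 and 0.155. NK cells had 0.100, 0.0596, 0.152 and 0.0969, which overlapped with CD8 T cells. The highest mean was in CD4 T cells without Foxp3 (0.145, 1.21, 0.553 and 0.0843), on 17 UMIs. Mature dendritic cells had 59 UMIs, and Ly6c2 monocytes 15, for a mean level of 0.00841 in monocytes. Csf2 was therefore found mainly in lymphocytes, at a depth that does not order the lymphocyte types.

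Csf3 had 303 UMIs in 139 cells, and the 10 highest cells held 35.6% of them. Neutrophils held 161 UMIs (53.1%), at 0.0655, 0.176, 0.112 and 0.113. Stromal or tumor cells held 66 UMIs, of which 56 were in 5 cells of the Lyve1CreCsf1rfl/fl tumor of run 1. Arg1 macrophages held 14 UMIs, and C1q macrophages 15. Csf3 was listed at 0 in all 4 tumors in 8 gated types, among them Cd209a dendritic cells, cDC1, plasmacytoid dendritic cells and regulatory T cells. A count of 0 allowed up to 0.0141 to 0.0286 per 10000 in the tumors' Cd209a dendritic cells (3 UMIs per tumor), which is below every tumor of neutrophils. Intervals and limits of this kind cover counting error only.

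**Figure D2:**
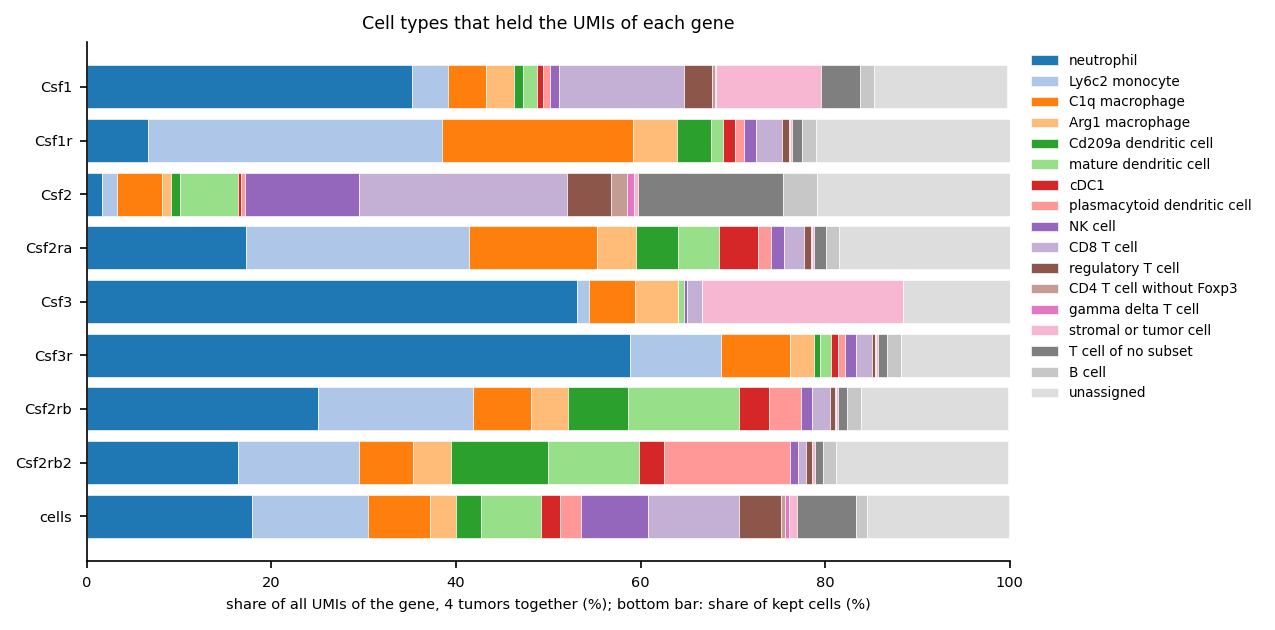
Share of each gene's UMIs (x axis, percent of the gene's UMIs over all kept cells) that came from each gated cell type, as stacked bars for the 8 genes, with the share of kept cells as the lowest bar. Neutrophils, 17.9% of kept cells, held 58.9% of Csf3r, 53.1% of Csf3 and 35.2% of Csf1 UMIs.

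The alpha chain of the GM-CSF receptor was spread over the myeloid types. Csf2ra was 1.70, 2.51, 1.76 and 1.99 in neutrophils and 1.97, 2.03, 1.85 and 1.84 in Ly6c2 monocytes, with overlapping ranges. Monocytes (1.92 ± 0.09) held 24.1% of its UMIs. Arg1 macrophages had 1.77 ± 0.28, C1q macrophages 1.54 ± 0.08 and Cd209a dendritic cells 1.20 ± 0.25, each overlapping with the next. It was 1.02 ± 0.10 in cDC1 and 0.682 ± 0.065 in mature dendritic cells, without overlap between these. T cells of all gated subsets and NK cells had means of 0.167 to 0.258. A Csf2ra UMI was found in 61.1% of monocytes and 8.5% of CD8 T cells, and after thinning in 24.9% and 1.82%.

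Of the types with cells in all 4 tumors, the beta common chain Csf2rb was highest in neutrophils, at 2.51, 4.95, 3.89 and 4.23 (3.90 ± 1.02), but the neutrophils of the Csf1rfl/fl tumor of run 1 lay within the range of other types. Mature dendritic cells had 1.65, 3.12, 2.25 and 2.76 (2.45 ± 0.64), and the order from there through Arg1 macrophages (2.41), Cd209a dendritic cells (2.19), plasmacytoid dendritic cells (2.12) and Ly6c2 monocytes (1.83) was within the spread. C1q macrophages had 0.737, 1.13, 1.43 and 0.968 (1.07 ± 0.29), near cDC1 (1.04 ± 0.32). Each of these types was lowest in the Csf1rfl/fl tumor of run 1. T cells and NK cells had means of 0.189 to 0.371.

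The mouse beta chain Csf2rb2 had a different order. Plasmacytoid dendritic cells had 1.69, 2.92, 2.01 and 2.15 (2.19 ± 0.52), and every tumor lay above every tumor of the other 15 gated types with cells in all 4 tumors. Cd209a dendritic cells had the next mean, at 0.860, 1.12, 0.800 and 0.917 (0.924 ± 0.14), without overlap with neutrophils (0.659 ± 0.096). They overlapped with Arg1 macrophages (0.530 to 0.817, mean 0.616). Mature dendritic cells (0.518) and Ly6c2 monocytes (0.373) followed, and C1q macrophages (0.242) and cDC1 (0.224) overlapped. A Csf2rb2 UMI was found in 62.3% of plasmacytoid dendritic cells and 1.68% of CD8 T cells, and after thinning in 25.6% and 0.184%. Without cells called doublets, the plasmacytoid mean was 2.91. The plasmacytoid gate held 378 cells of the Csf1rfl/fl tumor of run 1 and 76 to 98 of each other tumor.

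Csf3r was found mostly in neutrophils. They had 8.12, 14.1, 9.14 and 14.2 (11.4 ± 3.2), and held 58.9% of its UMIs, or 49.2 to 68.0% in the single tumors. A UMI was found in 87.1% of neutrophils, and in 74.4% after thinning. All other gated types had means of 1.83 or less, led by Arg1 macrophages (1.40, 1.85, 2.01 and 2.06), with C1q macrophages at 1.32 ± 0.16 and Ly6c2 monocytes at 1.27 ± 0.13. Cd209a dendritic cells were at 0.293 ± 0.016, and CD8 T cells at 0.234 ± 0.10. Per 1000 UMIs of S100a8 and S100a9 together, Csf3r had 5.08 to 11.1 in neutrophils and 23.8 to 65.9 in Ly6c2 monocytes. The ratio was also above that of neutrophils in every tumor in CD8 T cells (10.8 to 32.9) and regulatory T cells (8.67 to 24.3), and the part of free neutrophil RNA in the Csf3r of other types was not tested.

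For each gene of the family, the genes with the most similar profile were sought over 16 gated types among 10520 genes, as Pearson's r of log2 levels. The types shared tumors, libraries and the free RNA of each run, and the values are a description. Csf1r was most like Tgfbi (r = 0.976) and Fcgr1 (0.974), followed by Clec4a2, Clec4n and Fcgr2b. Csf3r was most like Cd14 (0.975), Gm13822 and C5ar1 (both 0.974), then Acod1 and Lilr4b. Genes with a profile like that of Csf2ra included Pirb (0.966) and Spi1 (0.965), then Gm21188 and Cd300c2. Csf2rb was most like Pirb (0.955) and Csf2rb2 (0.941), then Tcn2, Ncf1 and Csf2ra. Csf2rb2 was most like Csf2rb (0.941), then Fam217b, Prkcd, Gapt and Ctsh. The ligands had looser or sparser matches. Csf1 reached r = 0.852 with Ube2b, followed by Rnf11, Alkbh5, Phlda1 and Eea1. Csf2 was most like Gm30054 (0.932), Ehd3, St6galnac3, Lck and Zfhx2, and Csf3 was most like Il1rap (0.938), Ptpn23, Tst, Hbegf and Jdp2, both on the low counts above.

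The comparison of genotypes asked how the family's genes differed between tumors of Lyve1CreCsf1rfl/fl and Csf1rfl/fl mice. UMIs were summed per tumor and type, edgeR fitted its quasi-likelihood model to the sums, and p values were adjusted (Benjamini-Hochberg) over every gene tested. Over 14 types, 73 tests of genes of the family were made and none passed an adjusted p of 0.05. Of all 110733 gene tests over these types, 0.00271% passed. Over all kept cells, where 0% of 14731 genes passed, none of the 8 did either. At an unadjusted p under 0.05, 10 of the 73 tests and 1 of the 8 passed, beside 2475 of the 110733 tests within types and 491 of the 14731 genes over all kept cells. DESeq2 called none within the types and 1, Csf1r, over all kept cells, where it called 28 of 14731 genes. With 2 tumors against 2, a two-sided exact permutation test of a single value cannot go below p = 0.333.

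Csf1r had the largest shift. Over all kept cells it differed by −1.12 on the log2 scale (SE 0.19, unadjusted p = 0.0004, adjusted p = 0.752). Its adjusted p was 0.000708 with DESeq2, 0.0374 with library totals in place of TMM factors, 0.000258 without a filter on low counts and 0.123 with the run as a block, and so the call depended on the model. In the same order, these fits called 28 of 14731, 79 of 14731, 175 of 22232 and 0 of 14731 genes. Csf1r had values in all tumors in 14 types. In 13 of them it was lower in the Lyve1CreCsf1rfl/fl tumor than in the Csf1rfl/fl tumor of the same run, in both runs. It was higher in both runs in 0 of them. These types share the same tumors and the free RNA of each run, so they are not separate agreements. They include the untested B cells and T cells of no subset and leave out CD4 T cells without Foxp3 and gamma delta T cells. The share of all genes lower in both runs was not computed. In Ly6c2 monocytes the log2 difference was −0.65 (SE 0.21, unadjusted p = 0.0134), and in C1q macrophages −0.53 (SE 0.24, unadjusted p = 0.0511). In Cd209a dendritic cells it was −0.61 (SE 0.27), in neutrophils −0.50 (SE 0.32) and in Arg1 macrophages −0.19 (SE 0.28). Without the Csf1rfl/fl tumor of run 2 it was −0.34 in C1q macrophages and −0.055 in Arg1 macrophages, and without that of run 1 it was −0.34 in Arg1 macrophages. Within runs 1 and 2 the log2 difference of the levels in C1q macrophages was −0.23 and −0.86. The adjusted p values of Csf1r within types ran from 0.972 to 1.

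Differences of larger size were found in some types with little Csf1r, but not in stromal or tumor cells, where the levels were 0.0271, 0.0205, 0.0232 and 0.0314. Plasmacytoid dendritic cells had 0.444, 0.158, 0.0275 and 0.0736, on 102, 10, 1 and 4 UMIs, and Csf1r did not pass the filter on low counts there. Without the filter its log2 difference was −2.70 (adjusted p = 0.00103), where 64 of 14668 genes passed. In the 3 fits without 1 tumor that tested it, the difference was −2.33 to −3.56. Without doublets the plasmacytoid levels were 0.0759, 0.0828, 0 and 0.0787, so that the Csf1rfl/fl tumor of run 1 no longer stood apart. In cDC1, at 0.273, 0.234, 0.0898 and 0.189, the log2 difference was −0.88 (SE 0.38, unadjusted p = 0.0401). In CD8 T cells the log2 difference was −1.41 (SE 0.43), in mature dendritic cells −1.45 (SE 0.40), in NK cells −1.23 (SE 0.31) and in regulatory T cells −1.05 (SE 0.35). Without cells called doublets, it was −0.67 in CD8 T cells and −1.69 in NK cells. In the Csf1rfl/fl tumor of run 1, which had the most called doublets, the level in CD8 T cells was 0.310, and without that tumor the difference there was −0.59. Without the Csf1rfl/fl tumor of run 2 it was −1.89. In mature dendritic cells it was −0.91 without the Csf1rfl/fl tumor of run 1, and −1.84 without that of run 2. Fits without 1 tumor leave 1 tumor in a genotype, so only their sizes are given here. With the run as a block, Csf1r in NK cells passed (adjusted p = 0.0391), where 43 of 9810 genes did. The level of Lyz2, a lysozyme gene of myeloid cells, was 5.15, 1.82, 1.84 and 1.38 in CD8 T cells and 3.66, 2.74, 2.21 and 1.85 in NK cells. Per 1000 UMIs of Lyz2, Csf1r was 60.2, 81.0, 52.2 and 61.1 in CD8 T cells, where the genotypes overlapped, and 54.6, 62.6, 33.6 and 45.9 in NK cells, where they did not. It was 79.9, 70.9, 38.0 and 28.2 in mature dendritic cells, without overlap, and 113.3, 72.2, 80.2 and 85.3 in regulatory T cells, with overlap. The same ratio was 30.4, 38.4, 18.2 and 18.8 in Ly6c2 monocytes and 81.1, 125.4, 51.6 and 61.8 in C1q macrophages, also without overlap. Lyz2 itself was higher there in both Lyve1CreCsf1rfl/fl tumors, at 68.3, 58.8, 78.8 and 71.5 in monocytes and 18.9, 17.2, 25.3 and 19.3 in C1q macrophages. The lower ratios in these types thus also hold the rise of Lyz2. In neutrophils the ratio was 56.5, 109.3, 54.7 and 78.9, with overlap. The 7 myeloid transcription factors tested in CD8 T cells had a median log2 difference of −0.64 beside −0.0046 for all genes. The part of free RNA and of myeloid cells in these differences was not tested.

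**Figure D3:**
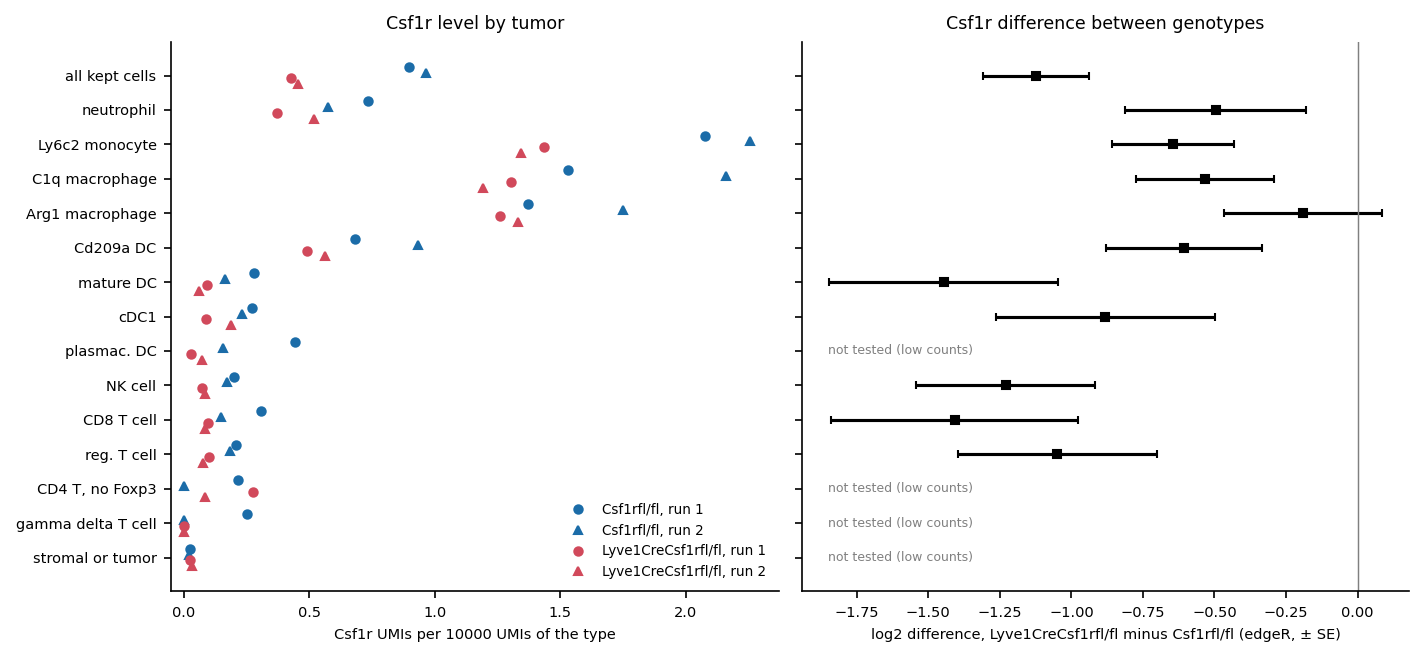
Csf1r per tumor in each tested cell type (left, UMIs per 10000, blue for Csf1rfl/fl and red for Lyve1CreCsf1rfl/fl, circles for run 1 and triangles for run 2) and the log2 difference of the genotypes with its SE (right). The tested differences lie below 0, from −0.19 in Arg1 macrophages to −1.45 in mature dendritic cells, and none passed the adjusted threshold.

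Type shares and levels were also set to their means in turn, as a description of the sum over all kept cells. C1q macrophages were 11.7% and 6.47% of the kept cells of Csf1rfl/fl tumors and 3.53% and 3.19% of Lyve1CreCsf1rfl/fl tumors, while Ly6c2 monocytes were 12.4%, 15%, 10.4% and 12.2%. When each tumor kept its own Csf1r levels but all had the mean type shares, Csf1r was 0.821, 0.862, 0.488 and 0.525, a log2 difference of −0.73. When each tumor kept its own shares but had the mean levels, it was 0.760, 0.752, 0.596 and 0.587, a log2 difference of −0.35. The observed log2 difference of the same means was −1.08. Cells of no gate counted as a type here, and free RNA and doublets are part of the levels. What caused these differences was not tested. Monocytes and macrophages together held 57.3% and 61.4% of Csf1r UMIs in Csf1rfl/fl tumors and 52.9% and 49.5% in Lyve1CreCsf1rfl/fl tumors.

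Lyve1, whose promoter drives the Cre, had 147 UMIs in 62 kept cells. Stromal or tumor cells held 133 of them, C1q macrophages 4 and Ly6c2 monocytes none. Folr2, a folate receptor gene of resident macrophages, had 158, 108, 8 and 6 UMIs in C1q macrophages, in 9.25%, 11.3%, 2.77% and 3.29% of those cells. Its log2 difference was −1.84 (SE 0.40, adjusted p = 0.464). The log2 difference of Lyve1 over all kept cells was 1.02 (SE 0.40, unadjusted p = 0.0366, adjusted p = 1). Csf1r was 1.58, 2.50, 1.24 and 2.37 in the C1q macrophages with a Folr2 UMI and 1.53, 2.09, 1.31 and 1.15 in those without. In Lyve1CreCsf1rfl/fl tumors only 7 and 5 cells had a Folr2 UMI, so their values rest on few cells.

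The difference of the genotype effects between C1q macrophages and Ly6c2 monocytes was tested as an interaction. Of 10616 genes, 0.00942% passed, and none of the 7 genes of the family tested did. For Csf1r the effect in C1q macrophages was 0.16 higher on the log2 scale (SE 0.15, unadjusted p = 0.308, adjusted p = 0.843). Without the Csf1rfl/fl tumor of run 1 it reversed to −0.058. Csf2ra was higher in the C1q macrophages of the Lyve1CreCsf1rfl/fl tumor in both runs and lower in its monocytes in both. Its effect in C1q macrophages was 0.30 higher (SE 0.13, unadjusted p = 0.0445, adjusted p = 0.641). Other tests of the family between genotypes with an unadjusted p under 0.05 were Csf1 in Cd209a dendritic cells, at a log2 difference of 0.97, Csf2ra in NK cells (−0.60) and Csf2ra in regulatory T cells (−0.70). In none of these did the adjusted p pass. Csf1 in Cd209a dendritic cells was 0.143, 0.150, 0.349 and 0.201, with log2 differences of 1.28 within run 1 and 0.42 within run 2. No gene of the family had an unadjusted p under 0.05 in that type with the stricter gate, without doublets or without the Lyve1CreCsf1rfl/fl tumor of run 1. Csf2ra was 0.224, 0.238, 0.156 and 0.145 in NK cells, and 0.123, 0.0726, 0.0737 and 0.0607 without doublets, where the genotypes overlapped. In regulatory T cells it was 0.201, 0.222, 0.111 and 0.150, beside Lyz2 at 1.85, 2.55, 1.27 and 0.919, and without doublets only 1 of the 6 genes had enough counts for the test there. The part of free RNA and of myeloid cells in the Csf2ra of these lymphocytes was not tested. The neutrophil levels of Csf1, Csf2rb and Csf3r were higher in run 2 than in run 1 in both genotypes.

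Cell types were then compared in 7 pairs in 1 model of all types, with the tumor as a block and 12087 genes tested. All types in this model shared 1 estimate of the spread of each gene. The SEs and p values of a pair therefore do not measure the spread over the tumors of its own types alone. Neutrophils differed from Ly6c2 monocytes in 7 of the 8 genes, where 57.5% of all genes passed. Csf1 was 4.71 higher on the log2 scale (SE 0.23, adjusted p = 1.89e-24), Csf3r 4.07 (SE 0.23) and Csf3 6.42 (SE 0.80), the last on 161 UMIs in neutrophils and 4 in monocytes, so that its size is uncertain. The beta chains were also higher, Csf2rb by 1.98 (SE 0.18) and Csf2rb2 by 1.72 (SE 0.13), and Csf1r was lower (−0.84, SE 0.19, adjusted p = 0.000155). For Csf2ra the log2 difference was 0.95 (SE 0.17, adjusted p = 1.74e-06), but it depended on the scaling. With library totals in place of TMM factors the median of all genes moved from −0.04 to −0.89, Csf2ra was at 0.04 (adjusted p = 0.820), and Csf1r at −1.73. The share of called genes that were higher in neutrophils was 50.1% with TMM and 18.2% with totals. Csf2 was 1.26 (SE 0.86, adjusted p = 0.212).

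Ly6c2 monocytes had more of the beta chain genes than C1q macrophages. Of the 8 genes 4 passed, where 32.7% of all genes did. Csf2rb was 0.97 higher on the log2 scale (SE 0.18, adjusted p = 2.81e-05) and Csf2rb2 0.80 (SE 0.14, adjusted p = 1.45e-05). Csf2ra was 0.51 higher (SE 0.17, adjusted p = 0.0152) and lost the call with DESeq2, without the block, with library totals and without the Csf1rfl/fl tumor of run 2. Csf1r differed by 0.39 (SE 0.18, adjusted p = 0.0944). Csf2 was −1.72 (adjusted p = 0.0498) on 15 UMIs in monocytes and 46 in C1q macrophages, and was 1.27 in the other direction without cells called doublets. With library totals, 28.6% of called genes were higher in monocytes, against 53.5% with TMM.

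C1q macrophages differed from Arg1 macrophages in 3 of 8 genes, all lower, where 19.5% of all genes passed. Csf1 was at −1.82 on the log2 scale (SE 0.25, adjusted p = 1.25e-07), Csf2rb2 at −1.51 (SE 0.16) and Csf2rb at −1.33 (SE 0.19). Csf1r differed by −0.03 (SE 0.21, adjusted p = 0.956), and Csf3r by −0.62 (SE 0.23, adjusted p = 0.0519). Of the called genes 40.3% were higher in C1q macrophages with TMM and 64.2% with totals.

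Cd209a dendritic cells differed from Ly6c2 monocytes in 4 of 8 genes, where 37.9% of all genes passed. Csf3r was −2.22 on the log2 scale (SE 0.26, adjusted p = 4.55e-10), Csf1r −1.49 (SE 0.20) and Csf2ra −0.77 (SE 0.18, adjusted p = 0.000292). Csf2rb2 was 1.25 higher (SE 0.13, adjusted p = 1.76e-11), while Csf2rb differed by 0.18 (SE 0.18, adjusted p = 0.455). Mature dendritic cells differed from cDC1 in 3 of 8 genes, where 52.9% of all genes passed. Csf2rb was 1.44 higher on the log2 scale (SE 0.19) and Csf2rb2 1.39 (SE 0.16), and Csf2 was 3.59 higher (SE 0.97, adjusted p = 0.00136) on 59 UMIs against 3. Of the called genes 52.8% were higher in mature dendritic cells with TMM and 41.3% with totals.

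NK cells differed from CD8 T cells in 1 of 8 genes, where 21.4% of all genes passed. That gene was Csf1, at −3.06 on the log2 scale (SE 0.26, adjusted p = 3.05e-14). Csf2 differed by −0.24 (SE 0.37, adjusted p = 0.724). Regulatory T cells differed from CD4 T cells without Foxp3 in 2 of 8 genes, where 8.61% of all genes passed. These were Csf3r (−1.95, adjusted p = 0.0440) and Csf2 (−2.43, adjusted p = 0.0488), on 23 and 17 UMIs in the 127 CD4 T cells. Without any 1 tumor, 0 or 1 of the 2 calls was left. Of the called genes 67.1% were higher in regulatory T cells with TMM and 52.3% with totals.

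**Figure D4:**
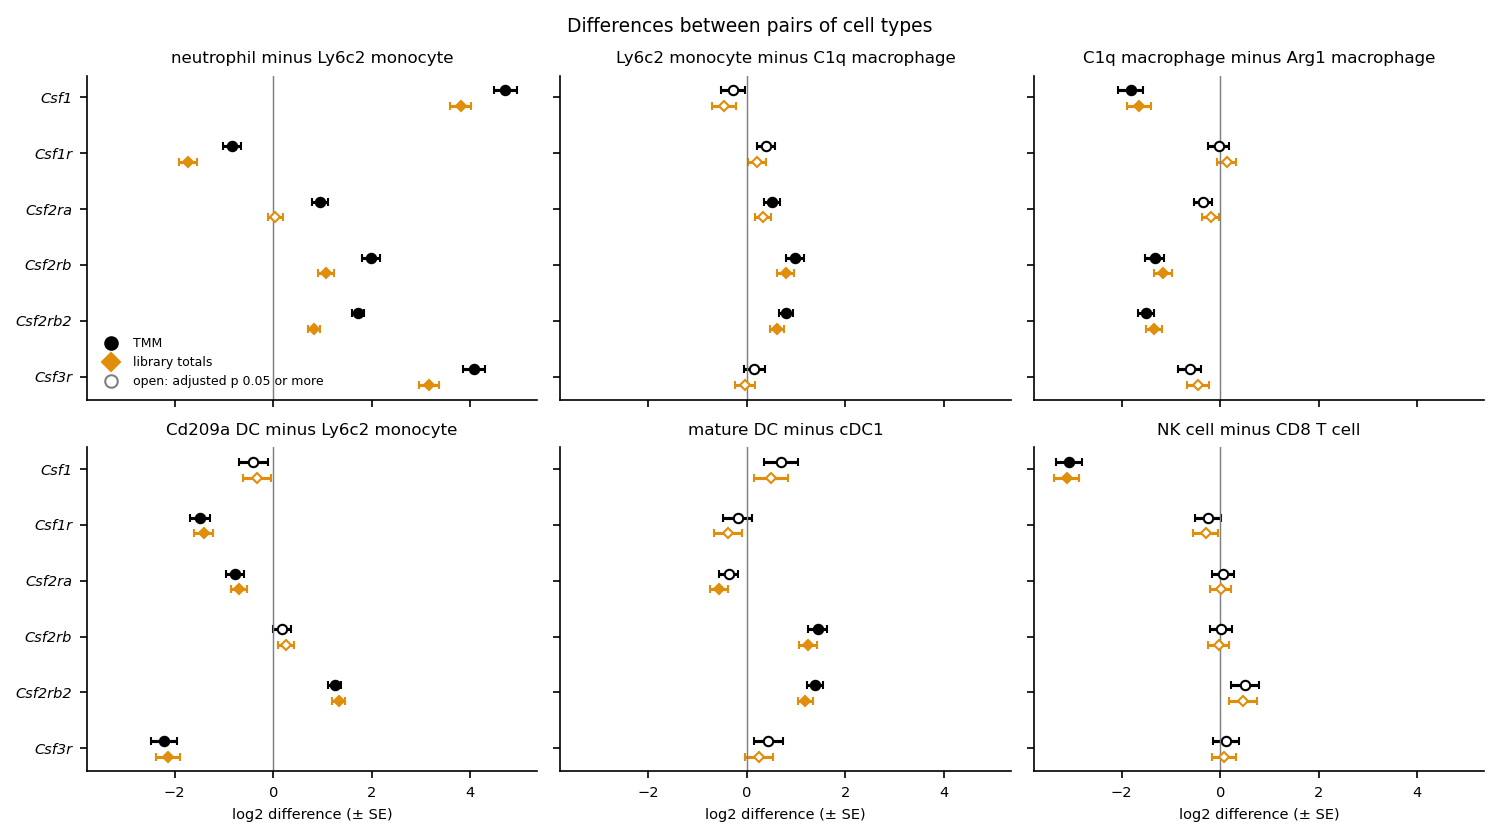
Log2 difference (x axis) of 6 genes of the family in 6 pairs of cell types, 1 panel per pair, with SE bars, circles for TMM factors and diamonds for library totals, filled where the adjusted p was under 0.05. Csf1 and Csf3r in neutrophils against monocytes (4.71 and 4.07) and Csf1 in NK against CD8 T cells (−3.06) lie far from 0 under both scalings, while Csf2ra in neutrophils moves from 0.95 to 0.04.

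Other genes of the pathway were read from 4 lists of 45 genes in all: related ligands and receptors, signaling molecules, targets and feedback genes of STAT proteins, and myeloid transcription factors. The lists were chosen with earlier results of these data known. Their counts and medians are therefore a description, and the activity of the pathway was not tested. Between genotypes none of the listed genes passed in any type. Medians were −0.15 to 0.15 on the log2 scale per type over the tested members of the 4 lists together. The myeloid transcription factors alone had medians of −0.64 in CD8 T cells and −0.44 in neutrophils, in plasmacytoid dendritic cells and over all kept cells, and of −0.24 to 0.35 in the other types. Between neutrophils and Ly6c2 monocytes 25 of 42 tested were higher in neutrophils and 9 lower, where 28.8% of all genes were higher and 28.7% lower. This balance depended on the scaling: with library totals 11 were higher and 22 lower, where 13.2% of all genes were higher and 59.4% lower. Of the STAT targets 9 of 11 were higher, with a median of 2.17 beside −0.04 for all genes, and with totals 6 were higher and 4 lower, with a median of 1.26 beside −0.89. Osm, which encodes the cytokine oncostatin M, was 4.25 higher on the log2 scale. Bcl2l1, which encodes BCL-XL, was 3.34, Socs3, which encodes a feedback inhibitor of STAT3 signaling, 2.92, and Mcl1, which encodes a BCL2 family survival protein, 2.91. Of the myeloid transcription factors 3 of 9 were higher and 5 lower, with a median of −0.70.

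Between Ly6c2 monocytes and C1q macrophages 16 of 42 were higher in monocytes and 7 lower (17.5% and 15.2% of all genes), with a median of 0.33 beside −0.02 for all genes. Cebpe, a factor of granulocyte maturation, was 3.10 higher, while Maf was −1.39, Kit −1.22 and Bcl2l1 −1.19. C1q macrophages had 4 of 42 higher and 11 lower than Arg1 macrophages (7.86% and 11.7% of all genes), and 9 higher and 9 lower with totals (16.5% and 9.22%). The lower ones included Cebpe (−1.97), Cebpb (−1.24) and Mcl1 (−1.19), while Ccnd1, a cyclin gene, was 1.26 higher. Cd209a dendritic cells had 8 of 42 higher and 17 lower than monocytes (18.1% and 19.8% of all genes). Kit (4.10) and Flt3 (4.09), the receptor tyrosine kinases of stem cell factor and of FLT3 ligand, were higher, and Cebpb (−2.81) was lower.

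Mature dendritic cells had 19 of 42 higher and 7 lower than cDC1 (28% and 25% of all genes), with 10 of 11 STAT targets higher and a list median of 1.44 beside 0.08 for all genes. With totals it was 15 higher and 12 lower (21.9% and 31% of all genes), with 9 of 11 STAT targets higher. The largest were Socs2 (6.15), Stat3 (2.58), Stat5a (2.44) and Osm (2.22). NK cells had 17 of 42 higher and 3 lower than CD8 T cells (11.5% and 9.93% of all genes), led by Tyrobp (3.11), the adaptor of NK receptors, Irf8 (1.83), Runx1 (1.59) and Socs2 (1.12). Regulatory T cells had 3 of 42 higher and 5 lower than CD4 T cells without Foxp3 (5.78% and 2.83% of all genes). Maf (1.69) and Bcl2l1 (1.22) were higher, and Socs3 (−1.51) and Pik3cd (−1.15) lower. With totals it was 1 higher and 7 lower (3.72% and 3.4% of all genes). There 0 of 11 STAT targets were higher, so Bcl2l1 lost its call.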

How the data were processed

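The authors sorted viable CD45+ cells, labeled each tumor with a TotalSeq hashtag antibody and sequenced 10x 3′ libraries from 2 Chromium runs. Run means the Chromium run throughout. Reads were aligned to mm10 with Cell Ranger 6.0.1, per the submitters' processing notes. The authors deposited UMI counts per gene and cell without normalization, and hashtag counts. A further deposited table holds scores, which are corrected counts after SCTransform in Seurat, for the cells the authors kept as singlets under a limit of 5% mitochondrial reads and outside clusters of 1 sample. That table served only to name the kept cells. The paper describes the removed clusters as lymphocytes that came almost only from the Lyve1CreCsf1rfl/fl tumor of run 2. Type shares and values over all kept cells leave those cells out. A table of the authors gave the genotype of each hashtag. The replicates are separate tumors.

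Hashtag counts were centered within each run, and the higher of the pair set the tumor of a kept cell. The gate scored each cell on the marker lists, with a lowest score of 0.3, a margin of 0.2 over the next list and at least 2 markers detected. The members and the lists were chosen with earlier results of these data known. Doublets were called by Scrublet (scanpy 1.11.5, expected rate 0.2), and cells called doublets were kept in the main values. Python 3.11.15, numpy 2.4.6, pandas 2.3.3, scipy 1.17.1 and matplotlib 3.10.9 were used.

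Counts were summed per tumor and type where every tumor had at least 10 cells. T cells of no subset met this limit but were left out of the tests. Sums were tested in R 4.3.3 with edgeR 4.0.16 (filterByExpr, TMM factors, quasi-likelihood test, Benjamini-Hochberg adjustment over all genes tested, threshold 0.05). Genotypes were compared without a block, and pairs of types and the interaction with the tumor as a block. Fits of pairs without the tumor block were an alternative. The replicate numbers mark the shared run. The run difference of the genotypes correlated across genes with r = 0.0278 to 0.673 in the 14 types and 0.494 over all kept cells (genes are not independent replicates), and the fit with this replicate block is an alternative. The others were DESeq2 1.42.0, no filter on low counts, leaving out each tumor, cells whose hashtag had at least 3 times the other, no called doublets, a stricter gate (score and margin of 0.5), and, chosen after seeing the data, library totals without TMM.

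On simulated counts with 100 genes changed by each size, a log2 change of 1 was recovered in 25% of genes for genotypes in C1q macrophages (9411 genes), 42% in Ly6c2 monocytes (10075 genes), 44% over all kept cells (14471 genes) and 78% for neutrophils against monocytes (12087 genes). A log2 change of 2 was recovered in 84%, 91%, 91% and 92%, with 6, 7, 7 and 7 false calls. Counts were drawn at the fitted dispersion trend, without a spread of each gene's own or a run effect. More genes were changed there than were called between genotypes in the data, so recovery in the data may be lower. For neutrophils against monocytes, all simulated types had the same mean profile apart from the changed genes. In the data 57.5% of genes were called in that pair, so its simulated recovery does not cover the dependence on the scaling. Folr2 over all kept cells, at a log2 difference of −2.97, had an adjusted p of 0.232 by edgeR.

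The genes named are the family, Lyve1 and Folr2, gate markers, the 5 genes most like each member with at least 200 UMIs (among genes with at least 500 UMIs, on log2 of the mean level plus 0.01), and of the pathway lists the 4 largest calls per pair of types, and the values of 2 genes that this rule names are not reported here. Gene positions come from the GRCm38 annotation and promoters from RefSeq.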

Additional observations from a re-analysis of the deposited data

Results flagged for a closer look

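In 3 of 76 levels of a gene in a type, 1 of the 4 tumors stood apart by Dixon's ratio, and chance flags about 1 in 20. Csf2ra in CD8 T cells had a ratio of 0.854, with the Csf1rfl/fl tumor of run 1 at 0.320 and the others at 0.115 to 0.145. Csf2ra in plasmacytoid dendritic cells had a ratio of 0.856, with the Lyve1CreCsf1rfl/fl tumor of run 1 at 0.880 and the others at 0.533 to 0.583. Csf3r in plasmacytoid dendritic cells had a ratio of 0.948, with the Lyve1CreCsf1rfl/fl tumor of run 2 at 0.129 and the others at 0.605 to 0.631.

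The genotype difference of Csf2ra in C1q macrophages minus that in Ly6c2 monocytes was 0.30 on the log2 scale, with an unadjusted p of 0.0445 and an adjusted p of 0.641 by edgeR. Its signs were opposite in both runs of both types.

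Some signal lay in cells outside the comparisons. The mast cell or basophil gate had 8 cells, of which Scrublet called 75% doublets, and they held 45 UMIs of Csf1, 31 of Csf2rb, 8 of Csf2rb2 and 4 of Csf3r. Cells of no gate had mean levels of 1.08 UMIs per 10000 for Csf1r, 0.926 for Csf1, 1.37 for Csf2ra, 1.64 for Csf2rb, 0.506 for Csf2rb2 and 1.42 for Csf3r. Csf2 was at 0.0875 and Csf3 at 0.0166 in these cells.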

How the results depend on the processing

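Within types, the count of genes of the family called between genotypes was 0, 3 without the filter (all Csf1r) and 1 with the replicate block (Csf1r in NK cells). Leaving out 1 tumor gave 0 to 5, with 5 without the Csf1rfl/fl tumor of run 2. Over all kept cells it was 0, and 1 (Csf1r) with DESeq2, with library totals and without the filter. Genotype fits without 1 tumor had 1 tumor in a genotype, so the spread within genotypes came from the other genotype alone. Over all genes, the 3 calls in the 14 types became 16 with DESeq2, 19 with totals, 409 without the filter, 208 with the replicate block, 6 with the hashtag limit and 106 to 568 without 1 tumor. The 0 calls over all kept cells became 28, 79 and 175 with DESeq2, totals and no filter, and 0 to 133 without 1 tumor. In pairs of types, monocytes against C1q macrophages went from 4 to 2 with DESeq2 (3945 of 12087 genes called) and without the tumor block (2629 of 12087). The count was also 2 without the Csf1rfl/fl tumor of run 2 (2709 of 11871; 2 to 4 without 1 tumor), and 6 without the filter (3814 of 21775). C1q against Arg1 macrophages went from 3 to 5 without the filter (2327 of 21775) and without doublets (3477 of 11385; 3 to 5 without 1 tumor). Mature dendritic cells against cDC1 went from 3 to 5 without the filter (6457 of 21775 genes called) and without doublets (6263 of 11385). NK against CD8 T cells went from 1 to 2 without doublets (2689 of 11385). Regulatory against CD4 T cells went from 2 to 1 without the tumor block (715 of 12087), with the stricter gate (974 of 11885) and without doublets (1609 of 11385). The count was 0 to 1 without 1 tumor. Over all genes, 2360 calls became 1563 without the tumor block for C1q against Arg1 macrophages, and 3952 became 2629 for monocytes against C1q macrophages. For regulatory against CD4 T cells, 1041 calls became 1609 without doublets and 615 to 715 without 1 tumor. The interaction of Csf1r, 0.16, ranged from −0.058 (reversed, without the Csf1rfl/fl tumor of run 1) to 0.31 without 1 tumor, and Csf2 in monocytes against C1q macrophages reversed to 1.27 without doublets. Csf2rb2 in its highest type moved from 2.19 to 2.91 without doublets. The cause was not tested. Csf2 and Csf3 were too sparse to order most types, and 2 tumors per genotype limit the power for log2 changes near 1.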
